A study of Mus musculus with 2 samples.

Results

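Regulatory T cells (Tregs) are CD4+ T cells that restrain other immune cells, and 7 genes listed for their identity and activation were followed here through the immune cells of mouse liver tumors. The genes are Foxp3, Il2ra, Ccr8, Itgae, Itgb8, Tnfrsf18 and Ttn. They were taken as a list by name from the 32285 genes of the count matrices, and all 7 were present in both libraries. The list was chosen with earlier results of these data known, so counts of its genes are given as a description. Their levels were read in Cd3e+ cells split by Foxp3, Cd4 and Cd8b1 UMIs and in other cells gated by markers, where a UMI is a unique molecular identifier that counts 1 captured transcript.

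Hepatocellular carcinoma (HCC) was induced in male wild-type C57BL/6J mice aged 6 to 8 weeks by hydrodynamic tail vein injection of c-myc-luc and PX330-sg-p53 with sleeping beauty transposase (Trp53KO/MYCOE), a route that delivers DNA mainly to hepatocytes. From day 12 all mice received 30 mg/kg lenvatinib, a multi-kinase inhibitor, for 25 days, after which tumors were regarded as lenvatinib-resistant. Treatment then went on to day 55 with 30 mg/kg lenvatinib alone (lenvatinib) or with 30 mg/kg lenvatinib and 100 mg/kg palbociclib, an inhibitor of CDK4 and CDK6 (combo). Live CD45+ cells were sorted and sequenced as 1 library per condition. How many mice were behind each library is not given in the sources used here, so that treatment, animals and library preparation cannot be told apart, and no test between conditions was possible. After the filter on cells, 14201 cells remained under lenvatinib and 11613 under combo, with median depths of 5541 and 5754 UMIs, and 49 barcodes occurred in both libraries.

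As background, FOXP3 is the forkhead transcription factor that sets the Treg program, and its mutation leads to autoimmunity. Tregs carry the high-affinity receptor for interleukin-2, whose alpha chain CD25 is encoded by Il2ra, and they depend on interleukin-2 made by other T cells because they make little of it themselves. Tregs that have settled in tissues and tumors often carry further receptors. These include CCR8 (Ccr8), the receptor of the chemokine CCL1, the integrin alpha chain CD103 (Itgae) that pairs with the beta chain of Itgb7 and binds E-cadherin, the integrin beta chain of Itgb8 that pairs with the alpha chain of Itgav and activates latent TGF-beta, and GITR (Tnfrsf18), a costimulatory receptor. Ttn encodes titin, the giant spring protein of striated muscle, and is best known from muscle, so that its place on the list does not make it a Treg marker.

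In mm10, Foxp3 spans chrX:7573644-7595245 on the plus strand and overlaps the non-coding gene Flicr on the same strand, so that reads in the shared part could have been assigned to either. Il2ra lies at chr2:11642807-11693193 (plus strand), Ccr8 at chr9:120092114-120094906 (plus strand) and Itgae at chr11:73090583-73147446 (plus strand). Itgb8 lies at chr12:119158022-119238802 (minus strand), Tnfrsf18 at chr4:156026164-156028895 (plus strand) and Ttn at chr2:76703980-76982547 (minus strand). RefSeq (GRCm38.p6) start sites were matched for 6 of the 7 genes, Itgae being the exception. Below are the 250 bases before the start for the gene that defines the gate (Foxp3, the downstream of 2 starts, both inside the annotated gene, and the only one of the 2 whose window overlaps no annotated exon), for the receptor of the growth factor of Tregs (Il2ra) and for the gene that differed most between the libraries in Foxp3+ cells (Ttn). Capitals mark matches to a forkhead motif (TGTTTNC) and a STAT motif (TTCNNNGAA) on either strand.
Foxp3, chrX:7580233-7580482, plus strand: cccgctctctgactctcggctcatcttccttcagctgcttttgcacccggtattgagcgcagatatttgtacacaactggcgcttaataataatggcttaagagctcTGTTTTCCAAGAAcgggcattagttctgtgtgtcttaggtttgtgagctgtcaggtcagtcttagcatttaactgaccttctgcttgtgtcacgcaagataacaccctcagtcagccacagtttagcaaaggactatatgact
Il2ra, chr2:11642542-11642791, plus strand: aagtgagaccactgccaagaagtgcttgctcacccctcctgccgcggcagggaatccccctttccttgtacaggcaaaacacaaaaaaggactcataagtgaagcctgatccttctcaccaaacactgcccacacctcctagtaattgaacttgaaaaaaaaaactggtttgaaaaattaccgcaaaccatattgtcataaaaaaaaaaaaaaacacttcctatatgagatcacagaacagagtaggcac
Ttn, chr2:76982548-76982797, minus strand: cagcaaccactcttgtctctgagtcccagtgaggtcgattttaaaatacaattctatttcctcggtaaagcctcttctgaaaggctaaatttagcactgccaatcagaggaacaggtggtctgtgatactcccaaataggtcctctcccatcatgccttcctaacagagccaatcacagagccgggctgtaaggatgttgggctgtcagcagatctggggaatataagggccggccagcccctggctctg
In the Foxp3 window shown a forkhead match (TGTTTTC, starting 143 bases before the start) and a STAT match (TTCCAAGAA, starting 139 bases before it) overlapped. The window of the other Foxp3 start (chrX:7579426-7579675) held neither, and had a TATA box 32 bases before the start. The windows of Il2ra and Ttn held no match to these motifs, nor to an AP-1 motif (TGANTCA) or a TATA box (TATAAA). Over all 32851 RefSeq windows of 250 bases, 17.8% held the forkhead letters, 7.02% the STAT letters, 6.75% the AP-1 letters and 12.4% the TATA letters. A match describes letters in a window, and these data hold no measurement of factor binding.

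Foxp3 transcripts were found in fewer T cells under combo. With each cell thinned to 2000 UMIs, so that depth was equal, 229 of 3850 Cd3e+ cells (5.95%, exact 95% interval 5.22 to 6.74%) had a Foxp3 UMI under lenvatinib and 22 of 3076 (0.715%, 0.449 to 1.08%) under combo. The intervals stood apart, with a combo to lenvatinib ratio of 0.12 (0.0666 to 0.207, the range spanned by opposite ends of the intervals, as for every ratio below). Without thinning the shares were 7.08% (482 of 6809 cells) and 1.36% (69 of 5086). B cells (Cd79a and Ms4a1, no Cd3e), which lack Foxp3, gave the level of free RNA, and after thinning 0.506% of them had a Foxp3 UMI under lenvatinib and none of 473 under combo (exact upper bound 0.777%). Thinned B cells thus lay below the Foxp3+ share under lenvatinib, whereas under combo the intervals of B cells and of Foxp3+ T cells overlapped. Markers of other cells also differed within the Cd3e+ gate, where the 8 neutrophil markers summed to 3132 CPM (UMIs scaled to a fixed total per gate) under lenvatinib and 21205 CPM under combo (8 of 8 higher), the 5 myeloid markers to 201 and 1142 CPM (3 of 5 higher), the 4 B-cell markers to 44.7 and 47.2 CPM (1 of 4 higher) and the 3 NK markers to 297 and 220.2 CPM (0 of 3 higher), with no marker at 0. Cells that also met another gate made up 5.9% and 10.9% of Cd3e+ cells, and without them the ratio of the Foxp3+ share was 0.171 (0.0968 to 0.292). All intervals cover counting error only and say nothing about differences between animals. Those of CPM also count UMIs of the same cell as independent, so they leave out differences between cells.

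**Figure D1:**
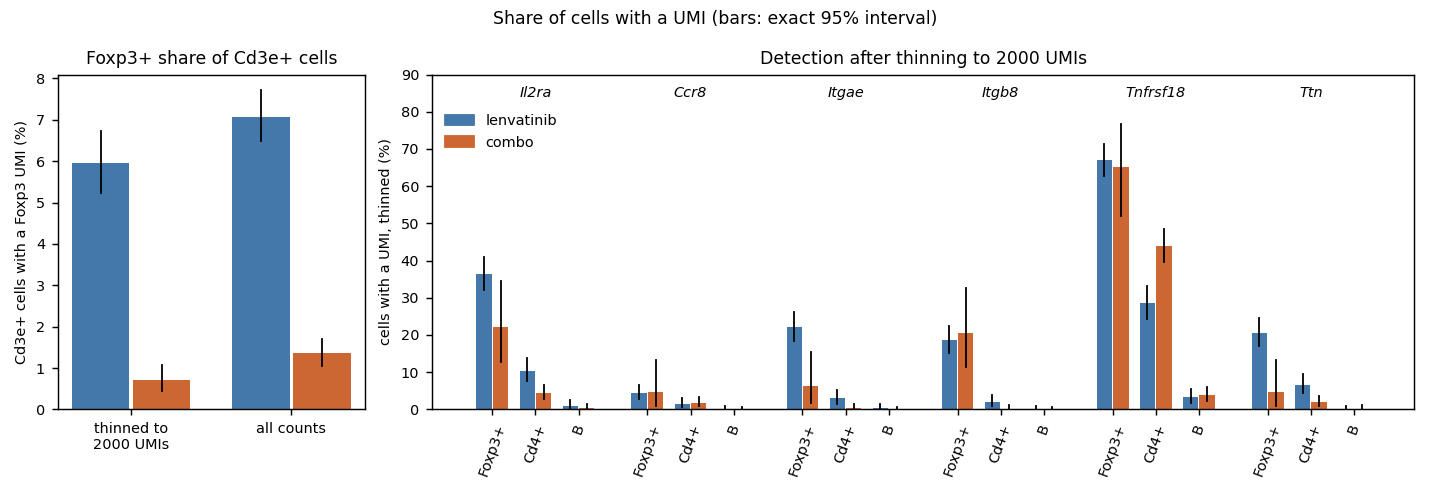
Left, share of Cd3e+ cells with a Foxp3 UMI in percent, after thinning to 2000 UMIs and on all counts, in the lenvatinib and combo libraries, and right, share of thinned Foxp3+, Foxp3- Cd4+ and B cells with a UMI of each of the other 6 genes, with exact 95% intervals as lines. Foxp3+ cells had 5.95% and 0.715% on the left, and Itgae and Ttn are the genes whose Foxp3+ intervals stand apart between the libraries on the right.

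The 482 lenvatinib and 69 combo cells with Cd3e and Foxp3 UMIs (Foxp3+ cells) mostly carried Ctla4 and Ikzf2, genes linked to Tregs that other T cells also carried. Ctla4 UMIs were in 80.9% of them under lenvatinib and 91.3% under combo, and Ikzf2 UMIs in 93.2% and 81.2%, against 5.44% and 6.12% (Ctla4) and 5.91% and 1.63% (Ikzf2) of B cells. In Foxp3- Cd4+ cells the shares were 49.9% and 60.7% (Ctla4) and 41.8% and 27.9% (Ikzf2). In Cd8b1+ cells they were 30.6% and 46.9% (Ctla4) and 29.3% and 17.9% (Ikzf2). The shares in this paragraph are without thinning. A Cd4 UMI was present in 48.1% and 46.4% of Foxp3+ cells. A Cd8b1 UMI was present in 18.7% and 27.5%, against 4.73% and 3.27% of the shallower B cells. Called doublets made up 9.96% (48 cells) and 5.8% (4 cells) of Foxp3+ cells. In Foxp3+ cells the 8 neutrophil markers summed to 5166 CPM under lenvatinib and 9975 CPM under combo, with 5 of 8 higher under combo and none at 0. The 5 myeloid markers summed to 122 and 976 CPM with 4 of 5 higher under combo, the 4 B-cell markers to 36.2 and 15 CPM with 3 of 4 at 0 under combo, and the 3 NK markers to 136 and 74.8 CPM with 0 of 3 higher. Without the 18 and 5 Foxp3+ cells that also met another gate, the combo to lenvatinib ratio of Itgae was 0.311 (0.157 to 0.57) and that of Ttn 0.14 (0.0462 to 0.341), and 2 of the 6 genes other than Foxp3 had intervals apart, as with these cells kept.

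Of the Foxp3+ cells, 40.7% under lenvatinib and 47.8% under combo rested on 1 Foxp3 UMI, and the highest count in a cell was 11 and 7. The mean was 2.55 and 2.23 Foxp3 UMIs per Foxp3+ cell, and the Foxp3 level was 380.4 CPM (359 to 402) and 329 CPM (279 to 385). These levels are fixed in part by the gate and were not compared further. Outside the Cd3e+ gate, 150 lenvatinib and 32 combo cells had a Foxp3 UMI, and these held 16.2% and 26.3% of all Foxp3 UMIs.

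Il2ra differed little between the libraries when all Foxp3+ cells were summed. Its level was 268 CPM (250.4 to 286) under lenvatinib and 246 CPM (203 to 295) under combo. The intervals overlapped, at 0.917 times the lenvatinib level (0.708 to 1.18). By summed CPM the subsets did not all go the same way, though their thinned shares overlapped. In Foxp3+ cells with Cd4 and no Cd8b1 (190 and 27 cells) Il2ra was 331 CPM and 185 CPM, lower under combo with intervals apart (0.56 times, 0.36 to 0.846). In Foxp3+ cells with Cd8b1 and no Cd4 (48 and 14 cells, 18.8% and 21.4% of them called doublets) it was 113 and 227 CPM, higher under combo with intervals apart (2.01 times, 1.04 to 3.81). The combo value rests on 30 UMIs in 7 of the 14 cells. After thinning, 18.8% (8.95 to 32.6%) and 21.4% (4.66 to 50.8%) of this subset had an Il2ra UMI. In the subset with Cd4 these shares were 39.6% (32.5 to 47%) and 19.2% (6.55 to 39.4%). After thinning, 36.4% (32 to 40.9%) and 22.2% (12.7 to 34.5%) of Foxp3+ cells had an Il2ra UMI, with intervals that overlapped.

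In Foxp3- Cd4+ cells (421 and 517 cells with Cd4, no Cd8b1 and no Foxp3 UMI), Il2ra was 55.2 CPM (46.8 to 64.8) under lenvatinib and 27.9 CPM (22.6 to 34) under combo, 0.504 times as high with intervals apart. Cd8b1+ cells had the lowest T-cell level, at 14.6 and 12 CPM with overlapping intervals. In Cd3e+ cells with neither coreceptor, those with a Trdc UMI (the gamma-delta T-cell constant chain) had 85.3 and 83.3 CPM, which did not stand apart, and those without it had 46.6 and 32 CPM, lower under combo. NK cells (Ncr1 and Klrb1c, no Cd3e) went the other way by summed CPM, with 22.1 CPM (20 to 24.3) and 31.5 CPM (27.7 to 35.6). The thinned shares with an Il2ra UMI overlapped between the libraries in NK cells (3.86% and 5.03%). They did so as well in cells with neither coreceptor nor Trdc (6.6% and 5.92%). Among NK cells, those with Eomes and no Itga1 nevertheless had 15.7 and 8.64 CPM, lower under combo, and those with Itga1 and no Eomes had 33.5 and 41.3 CPM with overlapping intervals. Apart from subsets of Foxp3+ cells, the highest Il2ra level was in ILC2 (group 2 innate lymphoid cells, gated on Gata3 and Il1rl1), at 523 CPM under lenvatinib and 415 CPM under combo in 48 and 17 cells. Neutrophils, which lack CD25, had 8.5 CPM and 0.697 CPM, a background of free RNA that was also lower under combo.

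Of the 17 genes listed as partners and ligands of the 7 genes, 12 passed the level filter in Foxp3+ cells (a mean of at least 20 CPM over both libraries). Their median ratio was 0.778 against 0.917 over all 5889 genes, of which 2.58% were higher and 5.16% lower past 2-fold under combo. Of the 12, 0 were higher and 1 was lower past 2-fold. That gene was Stat5a, a signal transducer of the interleukin-2 receptor. It was at 86.1 CPM (278 UMIs) under lenvatinib and 19.2 CPM (9 UMIs) under combo (0.223 times, 0.0908 to 0.478). Its paralog Stat5b was at 90.5 and 81.2 CPM (0.897 times, 0.566 to 1.39). The beta chain of the receptor, Il2rb, was at 801 and 438 CPM (0.547 times, 0.457 to 0.652), and the common gamma chain, Il2rg, at 350.4 and 271 CPM (0.774 times, 0.609 to 0.977), both lower with intervals apart. Il2rb was lower under combo as well in Foxp3- Cd4+ (0.67 times), Cd8b1+ (0.573 times) and NK cells (0.73 times). Il2 itself was nearly absent from Foxp3+ cells, with 5 UMIs under lenvatinib and 0 under combo, against 34 and 57 UMIs in Foxp3- Cd4+ cells.

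Tnfrsf18 did not stand apart between the libraries in Foxp3+ cells. It was at 561 CPM (536 to 588) under lenvatinib and 609 CPM (540.2 to 684) under combo, a ratio of 1.08 (0.919 to 1.28), and 67.1% and 65.1% of thinned Foxp3+ cells had a UMI. Its level was higher under combo in each Foxp3- T-cell gate and in NK cells. Foxp3- Cd4+ cells had 192 CPM and 287 CPM (1.5 times, 1.29 to 1.74), and Cd8b1+ cells had 73.1 and 97.5 CPM (1.33 times, 1.22 to 1.46). Cells with neither coreceptor had 92 and 139 CPM with Trdc and 108 and 139 CPM without it, cells with both coreceptors had 113 and 187 CPM, and NK cells had 114 and 179 CPM (1.57 times, 1.43 to 1.73). The intervals stood apart in these 6 gates, and in none of them did the ratio reach 2. B cells, at 16.9 and 16.2 CPM, and neutrophils, at 20 and 23.3 CPM, showed overlapping intervals and set the background. Tnfsf18, the GITR ligand, had 0 UMIs in Foxp3+ and in Foxp3- Cd4+ cells of both libraries. Within Foxp3+ cells, those with Cd8b1 and no Cd4 had 174 and 393 CPM of Tnfrsf18 and those with neither coreceptor 571 and 917 CPM, both higher under combo, while those with Cd4 and no Cd8b1 had 729 and 604 CPM with overlapping intervals. The shares of thinned cells with a Tnfrsf18 UMI overlapped between the libraries in each of these subsets.

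Ccr8 was low in all gates. Foxp3+ cells had 22 CPM (17.2 to 27.7, 71 UMIs) under lenvatinib and 19.2 CPM (8.79 to 36.5, 9 UMIs) under combo, and Foxp3- Cd4+ cells had 8.1 and 6.25 CPM from 22 UMIs each. The intervals of the libraries overlapped in both gates, and the counts in Foxp3+ cells left any ratio from 0.317 to 2.12 open to counting error. ILC2 had 10.1 CPM (2.08 to 29.4, 3 UMIs in 3 of 48 cells) and 27.1 CPM (5.58 to 79.1, 3 UMIs in 1 of 17 cells), which overlapped with Foxp3+ cells. Cd8b1+ cells had 0.177 and 0.0534 CPM (5 and 1 UMIs), and B cells and neutrophils had 0 UMIs in both libraries. Ccl1, which encodes the ligand of CCR8, was lower in Foxp3+ than in Foxp3- Cd4+ cells of each library. It was at 4.65 against 37.2 CPM under lenvatinib (0.125 times, 0.0575 to 0.253) and at 6.41 against 112 CPM under combo (0.0571 times, 0.0107 to 0.185), so that the ligand gene was lower in Foxp3+ cells of both libraries.

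Itgae was lower under combo in most T-cell gates. In Foxp3+ cells it was at 117 CPM (105 to 129, 377 UMIs) under lenvatinib and 36.3 CPM (21.2 to 58.2, 17 UMIs) under combo, with intervals apart (0.311 times, 0.164 to 0.552). Foxp3- Cd4+ cells had 15.1 and 2.84 CPM (0.188 times, 0.0665 to 0.482), and cells with neither coreceptor had 27.7 and 6.62 CPM with Trdc and 12.9 and 4.53 CPM without it, each lower under combo. Cd8b1+ cells as a whole did not stand apart, at 7 CPM (6.06 to 8.05) and 6.46 CPM (5.36 to 7.71). Split by Pdcd1, which encodes the inhibitory receptor PD-1, Cd8b1+ Pdcd1+ cells had 10.7 and 3.44 CPM, lower under combo, and Cd8b1+ Pdcd1- cells had 6.47 and 7.29 CPM with overlapping intervals. Conventional type 1 dendritic cells (gated on Flt3 with Xcr1 or Clec9a), which carry CD103 on their surface, had 47.4 and 25.9 CPM, and their intervals just met.

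The partner of Itgae, Itgb7, did not follow it. Itgb7 was at 291 CPM under lenvatinib and 378 CPM under combo in Foxp3+ cells (1.3 times, 1.05 to 1.61, intervals apart). Cdh1, which encodes the E-cadherin bound by this integrin, had 7 and 2 UMIs in Foxp3+ cells.

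Itgb8 was found mostly in Foxp3+ cells. It was at 83.6 CPM (74 to 94.2) under lenvatinib and 57.7 CPM (38 to 83.9) under combo, with overlapping intervals (0.69 times, 0.403 to 1.13), and 18.6% and 20.6% of thinned Foxp3+ cells had a UMI. Foxp3- Cd4+ cells had 12.9 CPM from 35 UMIs under lenvatinib and 0.569 CPM from 2 UMIs under combo (0.0441 times, 0.00384 to 0.229). Cd8b1+ cells had 0.318 and 0.267 CPM, and NK cells 3 and 0 UMIs. The alpha chain that pairs with it, Itgav, was at 356 and 229 CPM in Foxp3+ cells (0.642 times, 0.497 to 0.823), lower under combo with intervals apart. Lrrc32, which encodes the anchor of latent TGF-beta on Tregs, was at 47.1 and 27.8 CPM, and Tgfb1 at 172 and 137 CPM, both with overlapping intervals.

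Ttn showed the largest difference among the 6 genes in Foxp3+ cells. It was at 104 CPM (93.3 to 116, 336 UMIs in 155 of 482 cells) under lenvatinib and 12.8 CPM (4.7 to 27.9, 6 UMIs in 5 of 69 cells) under combo, with intervals apart (0.123 times, 0.0406 to 0.299). Thinned Foxp3+ cells had a Ttn UMI in 20.6% (17 to 24.5%) and 4.76% (0.993 to 13.3%). Foxp3- Cd4+ cells had 29.8 and 11.1 CPM, Cd8b1+ cells 4.6 and 2.67 CPM and cells with neither coreceptor nor Trdc 9.73 and 2.54 CPM, each lower under combo with intervals apart. NK cells as a whole had 7.95 and 7.06 CPM with overlapping intervals, yet NK cells with Itga1 and no Eomes had 32.4 and 8.54 CPM, lower under combo. By summed CPM, Ttn was higher in Cd8b1+ Pdcd1+ than in Cd8b1+ Pdcd1- cells of both libraries. It was at 17.4 against 2.75 CPM under lenvatinib (6.34 times, 3.83 to 10.5, 62 and 68 UMIs). Under combo it was at 4.91 against 2.05 CPM (2.4 times, 1.03 to 5.5, 20 and 30 UMIs). The thinned shares stood apart under lenvatinib (2.17% against 0.613%) and overlapped under combo (0.552% against 0.462%). Monocytes and macrophages had 2 and 1 Ttn UMIs and neutrophils 3 and 1. The levels are CPM and not per length, so Ttn is set here only against itself across gates and libraries.

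**Figure D2:**
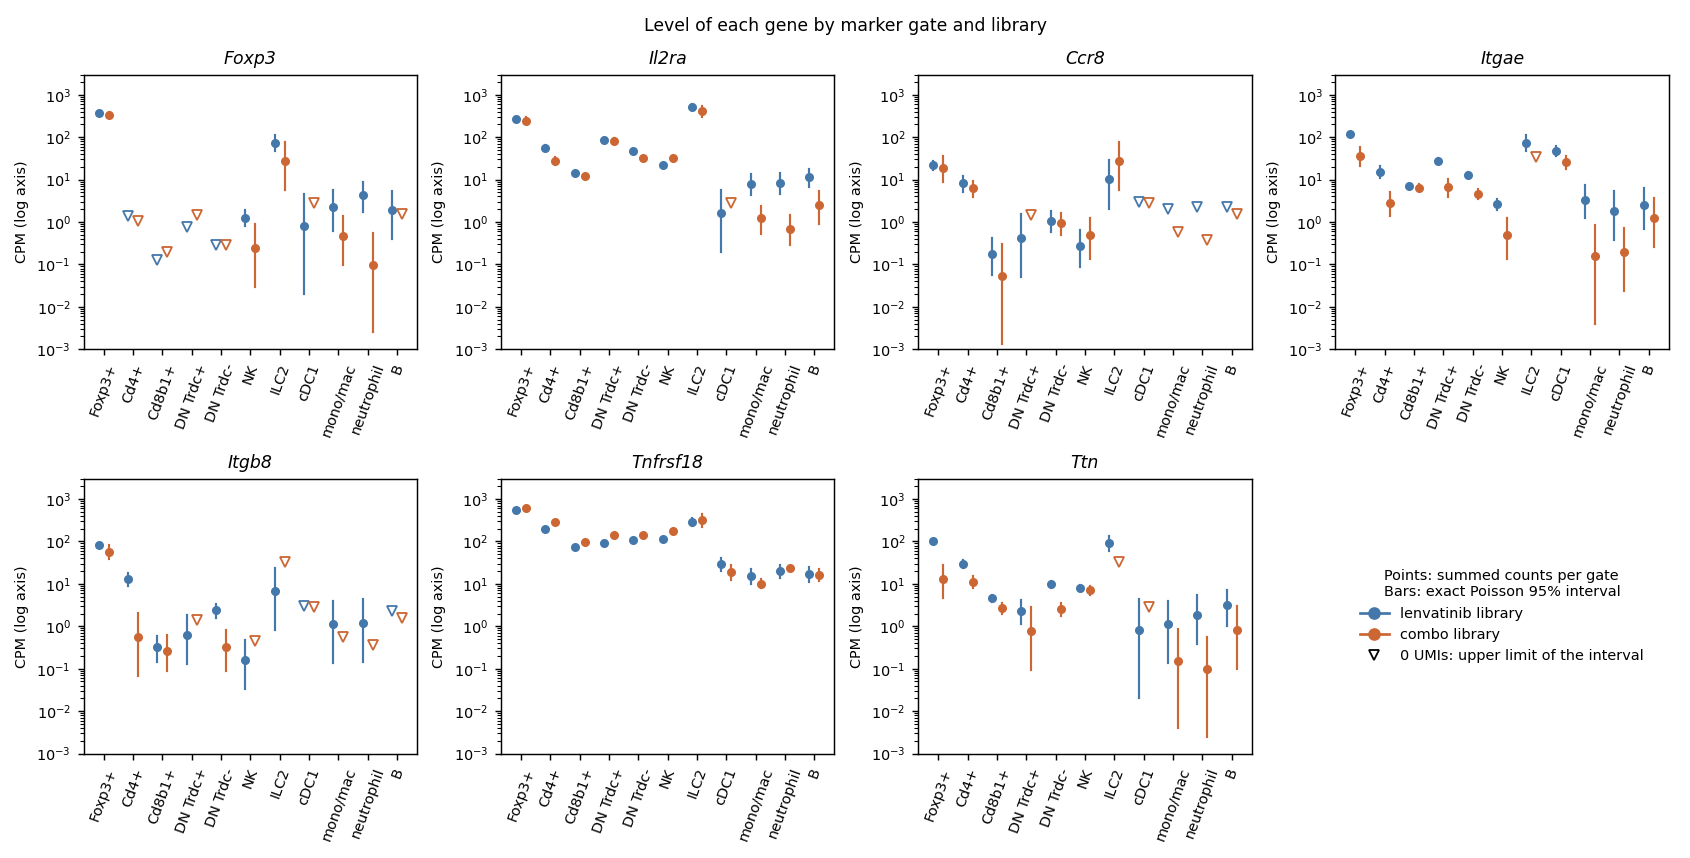
Level of each of the 7 genes in CPM on a log axis in 11 marker gates of the lenvatinib and combo libraries (DN, neither Cd4 nor Cd8b1); points are summed counts, lines exact Poisson 95% intervals, and open triangles the upper end of the interval where the gate had 0 UMIs. Foxp3 is fixed by the gates at 0 in Foxp3- T cells, Itgb8 stood highest in Foxp3+ cells (83.6 CPM under lenvatinib), while Il2ra was highest in ILC2 (523 CPM) and Tnfrsf18 was spread over T, NK and ILC2 gates.

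Of the 6 genes other than Foxp3, all of which passed the level filter in Foxp3+ cells, 2 (Itgae and Ttn) were lower and 0 higher past 2-fold under combo, against 5.16% lower and 2.58% higher of the 5889 genes that passed. Since the 6 genes were chosen with earlier results of these data known, this count and those below describe them and test nothing. In Foxp3- Cd4+ cells 3 of the 6 (Itgae, Itgb8 and Ttn) were lower past 2-fold and 0 higher, against 3.39% and 1.09% of 5698 genes, but of these only Ttn passed the level filter there. Past 2-fold, 3 of the 6 were lower and 0 higher in Cd3e+ cells as a whole (Itgae, Itgb8 and Ttn, against 1.18% lower and 1.8% higher of 5503 genes), likewise in Foxp3- Cd3e+ cells (1.18% and 1.8% of 5489 genes) and in cells with neither coreceptor nor Trdc (1.52% and 2.72% of 5519 genes), and none of the 3 passed the level filter there. In Cd8b1+ cells 1 was lower (Ccr8, on 5 and 1 UMIs, against 1.36% lower and 1.32% higher of 5377 genes), in cells with neither coreceptor and with Trdc 2 (Itgae and Ttn, against 2.13% and 1.6% of 5502 genes) and in NK cells 1 (Itgae, against 0.651% and 0.726% of 5375 genes), with 0 higher in each and none of these genes past the level filter. Of Foxp3+ cells, 62.6% and 57.1% still had a Foxp3 UMI after thinning. The part of Tregs without a captured Foxp3 UMI in the Foxp3- Cd4+ gate was not tested. Where gates and levels were both taken from thinned counts, which left 229 and 22 Foxp3+ cells, the intervals of all 6 genes overlapped in Foxp3+ cells, with ratios of 0.508 (0.111 to 1.63) for Itgae and 0.226 (0.0223 to 1.01) for Ttn. Without called doublets and cells with a Cd8b1 UMI, an alternative added after the data had been seen, Itgae was at 0.236 (0.0956 to 0.506) and Ttn at 0.0763 (0.014 to 0.252).

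**Figure D3:**
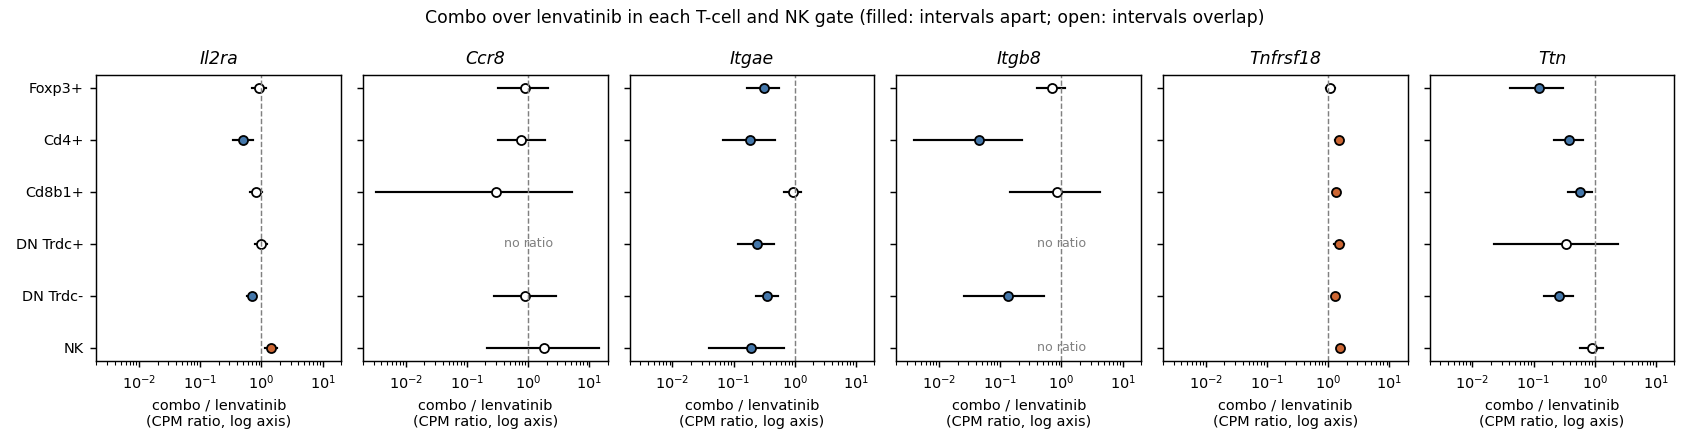
Combo over lenvatinib as a ratio of CPM on a log axis for 6 genes in 6 gates, with lines for the range of each ratio and filled points where the intervals of the libraries stand apart (DN, neither Cd4 nor Cd8b1; no ratio where both sides were at 3 UMIs or fewer). Tnfrsf18 lies above 1 with intervals apart in the 5 gates other than Foxp3+, where it is at 1.08 with overlapping intervals. Itgae and Ttn lie below 1 in Foxp3+ cells (0.311 and 0.123), and Il2ra lies below 1 in Cd4+ cells (0.504) and above 1 in NK cells (1.43).

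Against Foxp3- Cd4+ cells of the same library, the 6 genes were higher in Foxp3+ cells. Because they were chosen with earlier results of these data known, the shares over all genes stand beside them as a description only. Under lenvatinib all 6 were past 2-fold with intervals apart, and of the 5 that passed the level filter (not Ccr8) 5 were higher, against 1.75% higher and 1.01% lower of 5927 genes. The ratios were 7.73 for Itgae (5.14 to 11.9), 6.49 for Itgb8 (4.13 to 10.5), 4.85 for Il2ra (3.86 to 6.13), 3.49 for Ttn (2.52 to 4.89), 2.93 for Tnfrsf18 (2.57 to 3.35) and 2.71 for Ccr8 (1.4 to 5.46). Under combo 5 of 6 were past 2-fold and 4 had intervals apart, and of the 3 that passed the level filter (Il2ra, Itgb8 and Tnfrsf18) 3 were higher, against 3.99% higher and 1.8% lower of 5566 genes. The 4 were Itgb8 with a ratio of 101 (18.5 to 1219) that rests on 2 UMIs in Cd4+ cells, Itgae at 12.8 (4.05 to 42.7), Il2ra at 8.82 (5.97 to 13) and Tnfrsf18 at 2.12 (1.77 to 2.53). Ccr8 was at 3.07 (0.929 to 9.31) and Ttn at 1.16 (0.31 to 3.54), so that Ttn, unlike under lenvatinib, did not stand apart between Foxp3+ and Foxp3- Cd4+ cells under combo, with a value that ranged from 0.439 to 5.91 over the alternatives. Whether the ratios differ between the libraries was not tested. The list of partners and ligands gave 2 of 13 genes higher (Itgav and Lrrc32) and 1 lower (Ccl1) under lenvatinib, and 1 of 12 higher (Itgav) and 2 lower (Stat5a and Ccl1) under combo.

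A list of 36 other genes linked to Tregs, also chosen with earlier results of these data known, followed the same contrast. Between Foxp3+ and Foxp3- Cd4+ cells, 14 of 33 that passed the level filter were higher and 2 lower past 2-fold under lenvatinib, and 14 of 31 were higher and 2 lower under combo, with medians of 1.59 and 1.84 against 1.02 and 1.09 over all genes. Ikzf2, which encodes the transcription factor Helios, was at 1905 against 432 CPM under lenvatinib and 891 against 106 CPM under combo, and the checkpoint receptor Ctla4 at 655 against 244 CPM and 893 against 319 CPM. Also higher past 4-fold in both libraries were the costimulatory receptor Tnfrsf9 (4.24 and 6.24 times) and the tissue repair factor Areg (4.53 and 6.19 times). Past 4-fold under lenvatinib were also Klrg1 (7.13 times) and Il1rl1 (4.17 times), both under the level filter under combo, and under combo Ikzf4 (5.95 times). The 2 lower genes in each library were Tcf7, a factor of naive and memory T cells (0.419 and 0.281 times), and Cxcr6, a chemokine receptor (0.328 and 0.486 times).

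Between the libraries, 1 of 32 genes of this list that passed the filter in Foxp3+ cells was higher and 5 were lower past 2-fold under combo, with a median ratio of 0.915 close to that of all genes. Over all 5889 genes, 2.58% were higher and 5.16% lower. The higher gene of the list was Gzmb, which encodes the cytotoxic protease granzyme B, at 219 CPM under lenvatinib and 558 CPM under combo (2.55 times, 2.09 to 3.1). Gzmb was also higher under combo in Foxp3- Cd4+ (1.24 times), Cd8b1+ (3.16 times) and NK cells (1.41 times). The lower genes were Ikzf2 (0.468 times, 0.413 to 0.528), its relative Ikzf4 (0.38 times, 0.206 to 0.661), the TNF receptor Tnfrsf1b (0.481 times, 0.34 to 0.668), the lectin receptor Klrg1 (0.449 times, 0.226 to 0.829) and the interleukin-33 receptor Il1rl1 (0.406 times, 0.136 to 1.01, overlapping). Ctla4 was at 1.36 times (1.18 to 1.57) and Icos at 1.49 times (1.23 to 1.79), both higher under combo with intervals apart. Outside Foxp3+ cells, Ikzf2 was also lower in Foxp3- Cd4+ (0.245 times), Cd8b1+ (0.582 times) and NK cells (0.779 times). Ctla4 was also higher in these gates (1.31, 1.98 and 2.35 times).

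Of 10 mitosis genes, 8 passed the filter in Foxp3+ cells, and 4 of them were lower and 0 higher past 2-fold under combo, with a median ratio of 0.5. Over all 5889 genes, 5.16% were lower and 2.58% higher. This difference was not particular to Foxp3+ cells. In Foxp3- Cd3e+ and in Cd8b1+ cells 9 of 9 were lower past 2-fold (medians 0.294 and 0.301), against 1.18% and 1.36% of all genes that passed there. In NK cells 7 of 8 were lower (median 0.329), against 0.651% of all genes that passed. Mki67 was at 213 CPM under lenvatinib and 98.3 CPM under combo (0.462 times, 0.314 to 0.665), and Top2a at 205 and 72.6 CPM (0.355 times, 0.228 to 0.536). Cells with UMIs of 2 or more of the 10 genes, here named cycling, were 79 of 482 Foxp3+ cells (16.4%) under lenvatinib and 6 of 69 (8.7%) under combo. Cycling Foxp3+ cells of the lenvatinib library were deeper, with a median of 11178 UMIs against 4367 in the others. In CPM, 5 of the 6 genes were lower in them with intervals apart, from 0.224 times for Ttn to 0.631 times for Il2ra, with Ccr8 at 0.569 times and overlapping. Per cell, cycling cells held more UMIs of Il2ra (2.51 against 1.66), Tnfrsf18 (5.16 against 3.48) and Ccr8 (0.19 against 0.139). They held fewer of Itgae (0.734 against 0.792), Itgb8 (0.43 against 0.586) and Ttn (0.405 against 0.754). How far the lower CPM goes with the larger UMI total of cycling cells was not tested. Among cells that were not cycling, Ttn was at 139 and 10.5 CPM (0.0758 times, 0.0185 to 0.218) and Itgae at 145 and 39.4 CPM (0.271 times, 0.136 to 0.5) between the libraries, so both stayed lower under combo with intervals apart.

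Cells with more Foxp3 UMIs had higher levels of most of the 6 genes. Under lenvatinib, cells with 3 or more Foxp3 UMIs (192 cells) had 697 CPM of Tnfrsf18 against 393 CPM in cells with 1 Foxp3 UMI (196 cells), 324 against 178 CPM of Il2ra and 131 against 80.8 CPM of Ttn. Intervals stood apart for 5 of the 6 genes, Ccr8 being the exception at 26.9 against 16.2 CPM, and the median depths of the cells were close (5062 and 5053 UMIs). Under combo (21 and 33 cells, with median depths of 6780 and 4811 UMIs) Tnfrsf18 was at 993 against 438 CPM and Il2ra at 392 against 159 CPM, with intervals apart, and the intervals of the other 4 overlapped.

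Single Foxp3+ cells carried few of the 6 genes at once. After thinning, 84% of 462 lenvatinib and 79.4% of 63 combo Foxp3+ cells had a UMI of at least 1 of the 6, against 39.1% and 47.7% of Foxp3- Cd4+ cells, 4.3% and 4.44% of B cells and 5.49% and 5.89% of neutrophils. At least 3 of the 6 were found in 103 cells (22.3%, 18.6 to 26.4%) under lenvatinib and in 3 cells (4.76%, 0.993 to 13.3%) under combo, and these intervals stood apart. No Foxp3+ cell of either library had all 6. The share with at least 3 depends on depth, and without thinning it was 52.3% and 24.6%. Pairs of genes met in the same lenvatinib Foxp3+ cells from 0.962 times (Il2ra and Ccr8) to 1.47 times (Itgae and Itgb8) as often as the product of their shares gives, apart from Ccr8 and Itgb8, which met in 10 of 462 cells where the product gives 3.72 (2.69 times). These cells share a library and differ in the RNA they hold, and the pairs are given as a description.

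**Figure D4:**
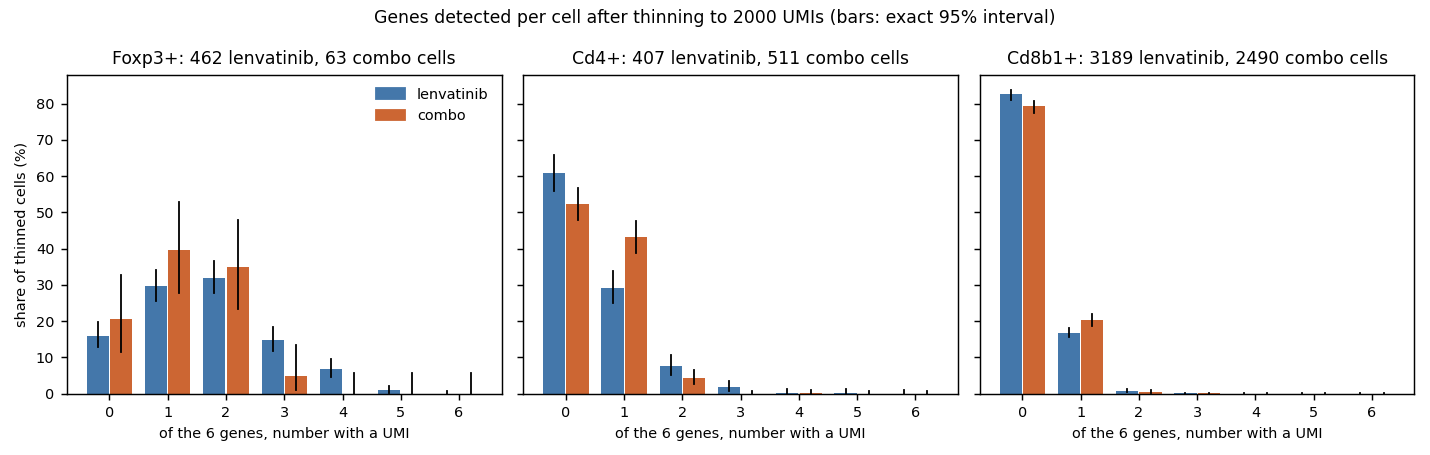
Share of thinned cells in percent by how many of the 6 genes other than Foxp3 had a UMI, for Foxp3+, Foxp3- Cd4+ and Cd8b1+ cells of each library, with exact 95% intervals as lines. Foxp3+ cells of the lenvatinib library reach 5 genes and have at least 3 in 22.3% of cells, those of the combo library reach 3 genes, and 82.5% and 79.2% of Cd8b1+ cells had none.

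Where the transcripts of each gene lay also differed between the libraries. Foxp3+ cells were 3.39% of all cells under lenvatinib and 0.594% under combo. They held 66.2% and 64.3% of Itgb8 UMIs, 46.4% and 14.5% of Ccr8 UMIs, 32.4% and 5.47% of Itgae UMIs, 30.9% and 2.53% of Ttn UMIs, 23.5% and 7.21% of Il2ra UMIs and 18% and 3.34% of Tnfrsf18 UMIs. Itgb8 was thus the gene whose UMIs stayed in Foxp3+ cells in both libraries, with intervals of 61.4 to 70.8% and 48 to 78.4%, whereas the intervals of the other 5 genes stood apart. Under combo the largest gate holding Itgae UMIs was Cd8b1+ cells (38.9%), and that holding Ccr8 UMIs was Foxp3- Cd4+ cells (35.5%). Read from the side of the gene, 74% of Cd3e+ cells with an Itgb8 UMI also had a Foxp3 UMI under lenvatinib and 65.4% under combo, against 41.8% and 4.9% for Ttn, 37% and 7.45% for Itgae and 13.4% and 2.08% for Tnfrsf18.

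**Figure D5:**
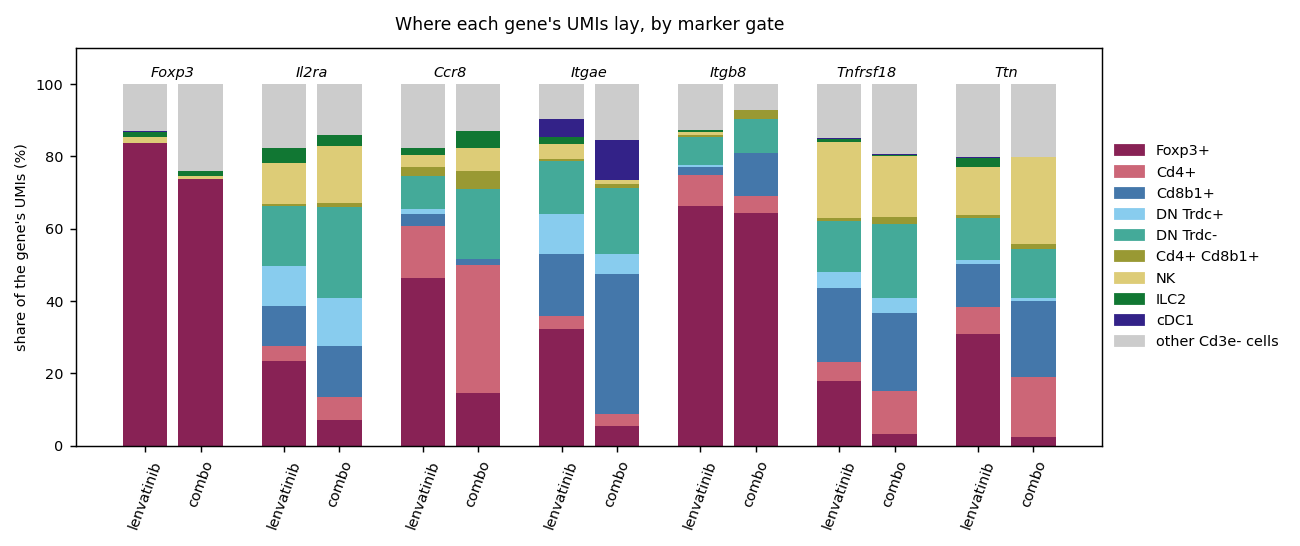
Share in percent of each gene's UMIs found in each marker gate (DN, neither Cd4 nor Cd8b1), for the lenvatinib and combo libraries side by side. The Foxp3+ segment holds 66.2% and 64.3% of Itgb8 UMIs, against 30.9% and 2.53% of Ttn UMIs and 46.4% and 14.5% of Ccr8 UMIs.

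Some Foxp3 UMIs lay outside T-cell gates. ILC2 had a Foxp3 UMI in 11 of 48 cells under lenvatinib (73.8 CPM, 46.3 to 112) and in 1 of 17 under combo (27.1 CPM, 5.58 to 79.1), with Itgae at 73.8 CPM and Ttn at 90.6 CPM under lenvatinib and 0 UMIs of both under combo. Since Gata3 and Il1rl1 are also carried by tissue Tregs and this gate asks only for the absence of a Cd3e UMI, ILC2 and Tregs without a captured Cd3e UMI could not be separated here. Cells with Foxp3 and no Cd3e UMI had 111 and 4.26 CPM of Ttn (80 and 1 UMIs), lower under combo as in Foxp3+ T cells. Unlike in Foxp3+ T cells, the summed CPM of Il2ra (209 and 72.3) and Tnfrsf18 (318 and 170.2) was also lower there with intervals apart. Their thinned shares overlapped, at 25.9% and 31.8% of cells for Il2ra and 45.4% and 45.5% for Tnfrsf18. Those of Ttn, at 14.8% and 4.55%, overlapped too. The combo value of Il2ra rests on 17 UMIs in 32 cells. Of these Cd3e- cells, 13.3% under lenvatinib and 21.9% under combo also met the gate of another cell type. Itgae was at 55.3 and 21.3 CPM with overlapping intervals, and Itgb8 had 23 and 0 UMIs and Ccr8 4 and 0. NK cells had a Foxp3 UMI in 0.182% and 0.103% of thinned cells, within the interval of B cells.

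The genes whose levels followed each of the 6 most closely were found over 22 profiles (11 gates of Foxp3- T, NK and other cells with at least 100 cells in each of the 2 libraries), as Pearson correlations of log2(CPM + 1) over 5716 genes, with no p because the profiles share libraries and depth. For Il2ra these were Rora (0.895), Cish (0.875) and Atn1 (0.857). For Ccr8 they were Tnfrsf4 (0.849), Tnfsf8 (0.735) and Sdf4 (0.705), for Itgae Zc3hav1 (0.861), Pip5k1a (0.808) and Itpkb (0.805), and for Itgb8 Ski (0.694), Tnfrsf4 (0.651) and Igtp (0.632). For Ccr8 and Itgb8 most profiles held 3 UMIs or fewer, and Foxp3+ cells, where most Itgb8 UMIs lay, are not among them. The genes named for these members thus rest on a few profiles above the floor. For Tnfrsf18 they were Trbc1 (0.948), Skap1 (0.941) and Ifng (0.937), and for Ttn Parp4 (0.889), Oip5os1 (0.821) and Inpp4b (0.818).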

How the data were processed

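Per the labels and the study's methods, live CD45+ cells were captured with a 10x Genomics 3′ kit, and the authors mapped reads to mm10 and counted UMIs with Cell Ranger (5.0.1 per the labels, 6.0.1 per the file headers). The deposited values were raw UMI counts per gene and barcode, 98107503 in the lenvatinib and 93583402 in the combo library. Barcodes with more than 6000 genes or more than 25% mitochondrial UMIs were removed here (308 and 376). Scrublet in scanpy 1.11.5 called 634 and 320 doublets, which were kept except in named alternatives.

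Cells were gated by UMIs of marker genes. UMIs were summed per gate and library and given as CPM with exact Poisson 95% intervals, and shares with Clopper-Pearson intervals (scipy 1.17.1). These cover counting error only, and those of CPM count UMIs of the same cell as independent, so levels were compared by whether intervals overlapped, without a test. Shares were read after drawing 2000 UMIs at random from every cell, which dropped 2028 and 747 cells with fewer. Genes past 2-fold were counted among those with a mean of at least 20 CPM over both sides. The procedure was checked on simulated counts. Alternatives changed gates, filters, thinning, the total and the limit on CPM.

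The 7 genes and the lists (17 partners and ligands, 36 other Treg genes, 10 mitosis genes) were chosen with earlier results of these data known. Named from the lists were the first that passed the level filter and those past 4-fold, and, after their values were seen, those past 2-fold and genes that pair with a member (Stat5b, Il2, Itgb7, Cdh1, Itgav, Lrrc32, Tgfb1, Tnfsf18) and Icos. Gene positions are from GENCODE M21.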

Additional observations from a re-analysis of the deposited data

Results flagged for a closer look

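Il2ra differed in direction between gates by summed CPM. The combo to lenvatinib ratio was 0.504 in Foxp3- Cd4+ cells (55.2 and 27.9 CPM) and 0.688 in Foxp3- T cells with neither coreceptor nor Trdc (46.6 and 32 CPM), against 1.43 in NK cells (22.1 and 31.5 CPM), with intervals apart in each of the 3 gates. Within NK cells the Eomes+ subset had a ratio of 0.55 and the Itga1+ subset, with overlapping intervals, of 1.23. After thinning, the shares of cells with an Il2ra UMI overlapped in NK cells (3.86% and 5.03%). They also overlapped in cells with neither coreceptor nor Trdc (6.6% and 5.92%). In Foxp3- Cd4+ cells they stood apart (10.3% and 4.31%). The difference between the gates was not tested, since each condition had 1 library.

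By summed CPM, Itgae differed in direction between the libraries when Cd8b1+ cells were split by Pdcd1. Cd8b1+ Pdcd1+ cells had 1.65 times the level of Cd8b1+ Pdcd1- cells under lenvatinib (10.7 and 6.47 CPM, from 38 and 160 UMIs) and 0.471 times under combo (3.44 and 7.29 CPM, from 14 and 107 UMIs). The 38 UMIs lay in 15 of 418 cells. After thinning, 1.93% of Cd8b1+ Pdcd1+ and 1.59% of Cd8b1+ Pdcd1- cells had an Itgae UMI under lenvatinib. Under combo these shares were 1.1% and 1.28%, and the intervals overlapped in each library. The difference between the libraries in summed CPM was not tested either.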

How the results depend on the processing

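Ratios and shares were recomputed under 19 alternatives, of which the gate without Cd8b1+ cells and doublets and the removal of shared barcodes were chosen after seeing the data. No ratio that stood apart turned its direction. The combo to lenvatinib ratio ranged over its alternatives from 0.0875 to 0.196 for the Foxp3+ share, and in Foxp3+ cells from 0.198 to 0.508 for Itgae, 0.0377 to 0.226 for Ttn, 0.56 to 1.19 for Il2ra and 0.828 to 1.16 for Tnfrsf18. With gates and levels on thinned counts, 0 of 6 genes stood apart in Foxp3+ cells (main count 2) and 2 of 6 against Foxp3- Cd4+ cells under combo (main count 4), on 22 combo cells.

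Counts of genes past 2-fold moved most. The main counts were 152 higher and 304 lower under combo in Foxp3+ cells, 104 higher and 60 lower in Foxp3+ against Foxp3- Cd4+ cells under lenvatinib, and 222 and 100 under combo. In that order they were 335, 641, 195, 147, 557 and 248 with Foxp3+ cells limited to Cd4 and no Cd8b1, 845, 973, 417, 250, 1290 and 592 on thinned counts, 293, 614, 192, 124, 440 and 216 with a mean of at least 10 CPM, and 51, 90, 50, 25, 64 and 38 with at least 50 CPM. Requiring 2 Foxp3 UMIs gave 231 and 530 in Foxp3+ cells, 101 lower under lenvatinib and 368 and 176 under combo. Without Cd8b1+ cells and doublets, 494 were lower in Foxp3+ cells, with 161 and 124 under lenvatinib and 446 and 214 under combo. Averaging CPM over cells gave 161 higher under lenvatinib and 398 under combo, and leaving mitochondrial, ribosomal, hemoglobin and neutrophil genes out of the total gave 180 lower under combo. Fewer cells and a lower limit on CPM both leave more genes to counting error.

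The share of Foxp3+ cells with at least 3 of 6 genes under lenvatinib (22.3%) was 8.52% at 1000 UMIs, 38% at 4000 UMIs, 52.3% without thinning, 27.1% without cycling cells and 26.5% without Cd8b1+ cells and doublets, and under combo 24.6% without thinning. No paired analysis was possible because each condition had 1 library, for which reason no library could be left out.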
